A study of Mus musculus with 18 samples.

Results

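Among 18 mouse embryos that carry different doses of Tbx1, the 2 embryos labelled Neo2/Neo2 and the 2 labelled Neo2/Neo lay at opposite ends of a range of neuronal maturity. These 4 embryos of 18 are described here by the tissues and gene programmes in which they differed. The protein made from Tbx1 belongs to the T-box transcription factors and acts in the pharyngeal arches and in the heart field that feeds the outflow tract. Each whole embryo was collected at embryonic day 9.5 and hybridised alone to an Affymetrix whole-genome mouse array, on a mixed 129SvEv and C57Bl/6 background. Neo2/Neo2 embryos carried 2 copies of the Neo2 allele of Tbx1, and Neo2/Neo embryos carried 1 Neo2 and 1 Neo allele. Both alleles are known as hypomorphs, and none of the 4 embryos held a wild-type or a null copy. The other 14 embryos were 2 each of -/- (2 null alleles), Neo/Neo, Neo2/-, +/-, Neo/+, Neo2/+ and WT. The labels give no litter, somite number or sex. By Xist and Y-linked genes, both Neo2/Neo2 embryos were male, and Neo2/Neo replicate 1 was female and replicate 2 male.

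The 4 embryos were chosen by their deposited signals in these same arrays, in which neuronal genes lay far apart. Differences between the 2 genotypes are therefore a description, and no test is drawn from them. Values are log2 signals, so a difference of 1 is a doubling, and every difference is Neo2/Neo2 minus Neo2/Neo with the standard error (SE) of a fit over all 18 arrays. A gene is represented by its brightest probe set. For many genes, but not for all, other probe sets are given where they showed much less of the difference or the opposite sign. Tests were made only in embryos that the choice did not use, as the slope of each gene on a neuronal index over 12 other embryos, with limma's p adjusted over all probe sets. The +/- replicate 1 and -/- replicate 1 arrays were left out of the slopes: the median distance of their probe sets from the median over the 18 arrays was 0.179 and 0.161, against 0.0652 to 0.121 in the other 16. The array medians ranged over 5.73 to 5.94, and precision is limited by how few arrays there are. In a whole embryo, fewer cells of a type and less RNA per cell cannot be told apart.

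At this age the neural tube is producing its first neurons. Proneural factors of the bHLH family start neuronal differentiation, and filament proteins, microtubule regulators and RNA-binding proteins of the ELAV family follow in the newborn neurons. At the tail, a pool of progenitors still lengthens the body axis. Lin28a, an RNA-binding protein that blocks maturation of let-7 microRNAs, is high in the early embryo and declines as tissues differentiate.

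The neuronal index of an embryo is the mean log2 deviation of 24 early neuronal cytoskeleton and RNA-binding genes from their means over the 18 embryos. It was -0.75 and -0.69 in Neo2/Neo2 embryos, against 0.80 and 0.81 in Neo2/Neo embryos. The genotypes did not overlap, and the 2 embryos within each differed by far less than the difference of -1.52 between the means. The 14 other embryos ranged from -0.71 to 0.50, with a median of 0.04. The Neo2/Neo embryos were the highest of the 18. At the low end, -/- replicate 2 lay at -0.71, between the Neo2/Neo2 embryos, so the low extreme was not unique to Neo2/Neo2. An index from 25 proneural genes gave -0.42 and -0.33 in Neo2/Neo2 embryos, against 0.43 and 0.46 in Neo2/Neo embryos.

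**Figure D1:**
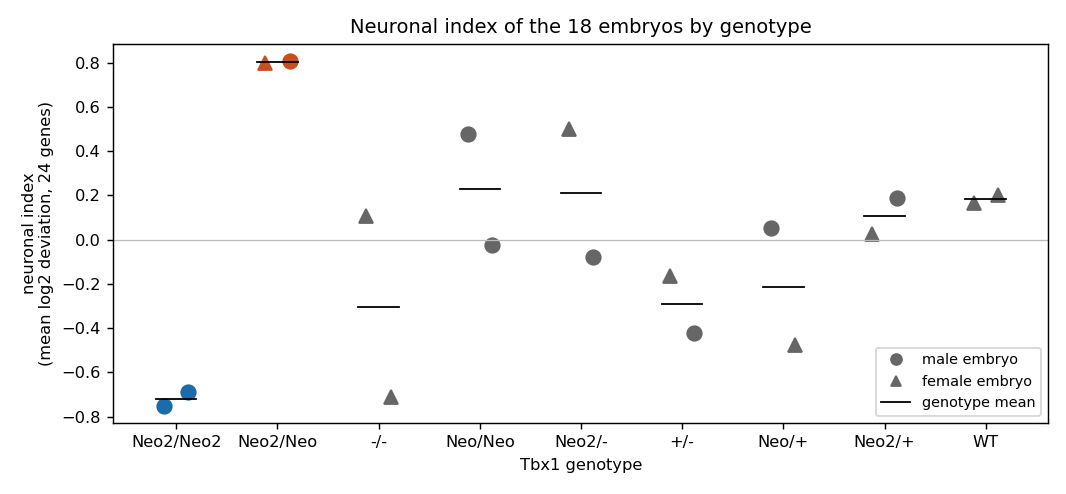
Neuronal index (mean log2 deviation of 24 genes, vertical axis) of each embryo by Tbx1 genotype, with replicate 1 to the left of replicate 2, symbols for sex and a bar at the genotype mean. The Neo2/Neo2 embryos lie at -0.75 and -0.69 and the Neo2/Neo embryos at 0.80 and 0.81, while -/- replicate 2 lies at -0.71.

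Tbx1 itself was 6.62 in both Neo2/Neo2 embryos, against 5.65 and 5.67 in Neo2/Neo embryos, a difference of 0.96 (SE 0.14). Neo2/Neo2 embryos were at the level of the WT embryos, which had 6.54 and 6.63. The amount of Tbx1, the Neo allele and the apparent stage changed together between the genotypes and cannot be told apart there. Over the 12 other embryos the slope of Tbx1 on the index was 0.10 (SE 0.44, limma adjusted p = 0.94). The -/- replicate 2 embryo, with the index of a Neo2/Neo2 embryo, had a Tbx1 value of 5.16.

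Of 45037 probe sets, 1195 (2.65%) passed an adjusted p of 0.05 between the genotypes. By gene, 268 (1.47%) of 18193 were past that threshold as higher and 320 (1.76%) as lower. The arrays did not overlap for 7453 genes that were higher (41.0%) and 3909 that were lower (21.5%). These shares are given so that the counts of the gene lists can be set against them, and nothing is read from the threshold itself, since it belongs to the contrast that chose the embryos. The median difference over all genes was 0.06. With sex as a covariate 325 probe sets passed, and without Neo2/Neo2 replicate 2 or without Neo2/Neo replicate 1 none did, with 4632 and 5228 then at an unadjusted p under 0.05 in limma.

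**Figure D2:**
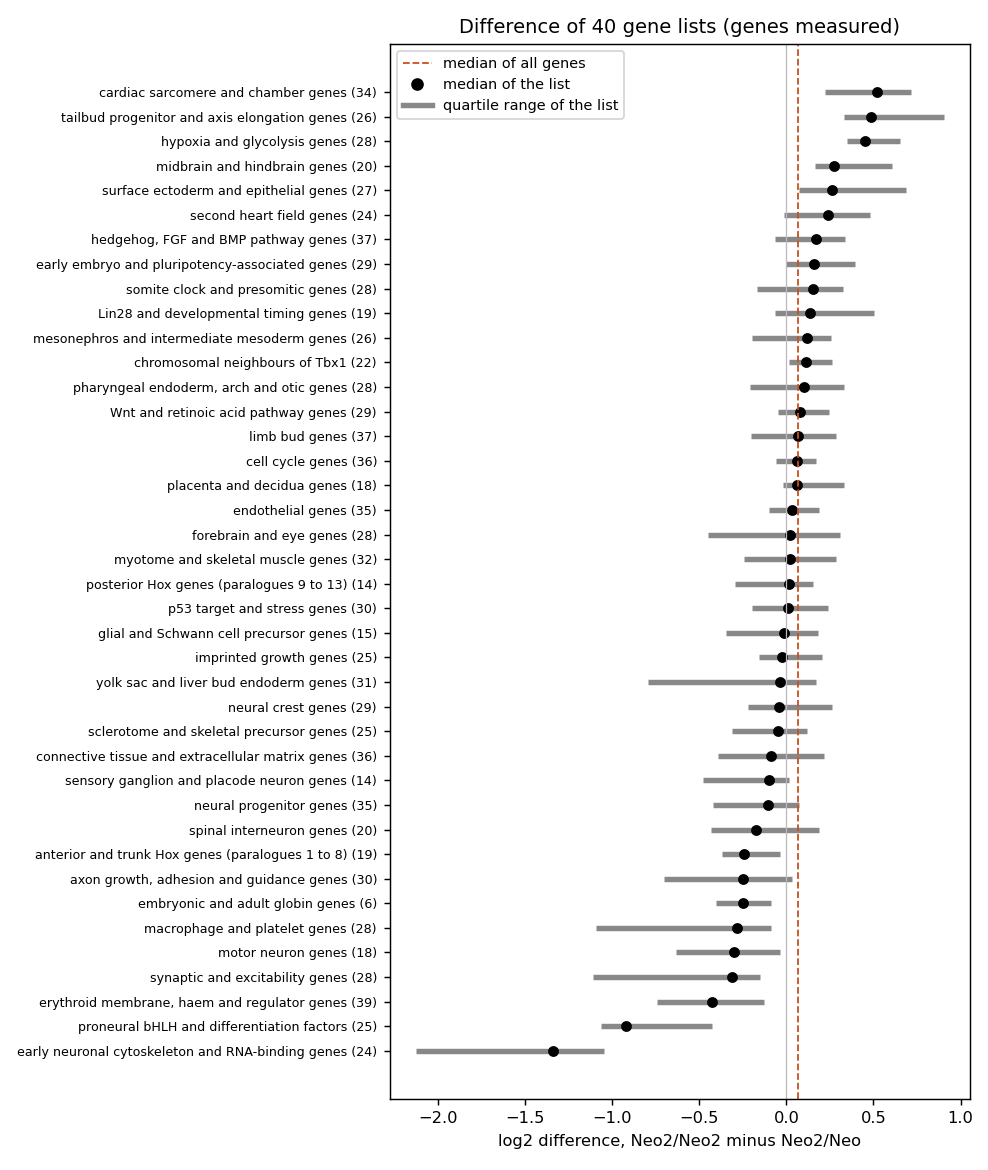
Log2 difference, Neo2/Neo2 minus Neo2/Neo (horizontal axis), for 40 gene lists, with the number of genes measured in brackets, a point at the median and a bar over the quartiles. Medians run from -1.34 for early neuronal genes to 0.52 for cardiac genes, around a median of 0.06 for all genes (dashed line).

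In the 12 other embryos, 702 (3.86%) of 18169 genes outside the index list passed the slope test, 421 rising with the index (2.32%) and 281 falling (1.55%). This test is independent of the 4 embryos. Its count depended on the embryos and on the index: of 44988 probe sets 1335 passed (2.97%), and the count was 306 with all 14 other arrays, 509 with the proneural index, 370 with a replicate block, 248 without -/- replicate 2, 574 without Neo/Neo replicate 1 and 823 without +/- replicate 2. With genotype as a factor, which leaves 4 residual degrees of freedom and compares only embryos of 1 genotype, 1 probe set passed. The slopes therefore order embryos along the index, and the share of the index that goes with genotype was not separated. Of 102 named genes whose slope passed, all kept their sign under every alternative, 51 still passed with all 14 arrays, 47 without -/- replicate 2, and 34 under every alternative other than genotype as a factor. Among the 34 are St18, Ebf3, Dcc, Id4, C130071C03Rik, Afp, Alb, Nr6a1, Car4, Phlda2 and Tbx6. Among those that did not pass without -/- replicate 2 are Apela, Sall4, Lrp2, Nfib, Six6, Mylpf, Slc2a1, Spink1, Prodh, Mir124a-1hg and Mir99ahg.

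Neuronal structural genes were the group furthest below in Neo2/Neo2 embryos. They built the index, so their values are a description. Nefl, the light neurofilament chain, had 8.01 and 8.02 in Neo2/Neo2 embryos, against 10.50 and 10.52 in Neo2/Neo embryos. Nefm, the medium chain, had 8.29 and 8.39 in Neo2/Neo2 embryos, against 10.89 and 10.88 in Neo2/Neo embryos. Both chains were thus more than 5-fold lower in Neo2/Neo2, and replicates differed by 0.10 or less. Nhlh2, a bHLH factor of newborn neurons, was 6.57 and 6.55 in Neo2/Neo2 embryos, against 9.33 and 9.51 in Neo2/Neo embryos. Dcx, a microtubule-binding protein of migrating neurons, differed by -2.7 (SE 0.73), Stmn2 by -2.27 (SE 0.51) and Ina, a further neuronal filament, by -2.15 (SE 0.37). All 24 genes of the list were lower with no overlap of arrays, by 0.42 to 2.86 on the log2 scale, and 15 were past the threshold.

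The factors that start neuronal differentiation were lower too. Of 25 proneural and differentiation factors measured, 10 were past the threshold as lower and 0 as higher, with a median difference of -0.92. St18, a zinc finger factor of the Myt1 family, had 4.63 and 4.57 in Neo2/Neo2 embryos, against 7.01 and 7.20 in Neo2/Neo embryos. Myt1 of the same family differed by -2.0 (SE 0.35) and Ebf3, which acts after proneural factors, by -1.45 (SE 0.22). The second probe set of St18 differed by -0.89 and that of Myt1 by -0.37. In the 12 other embryos 14 of the 25 rose with the index and 0 fell, against 2.32% and 1.55% of all genes. The slope of St18 was 1.41 (SE 0.12, limma adjusted p = 3e-05) and that of Ebf3 was 0.65 (SE 0.07, adjusted p = 0.00015).

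Genes for axons and excitability followed. Dcc, the netrin receptor that steers commissural axons, was 6.42 and 6.18 in Neo2/Neo2 embryos, against 8.44 and 8.61 in Neo2/Neo embryos. Its slope in the other embryos was 1.46 (SE 0.12, limma adjusted p = 1.9e-05). Epha3, an ephrin receptor, differed by -2.19 (SE 0.39) and had a slope of 1.13 (SE 0.12). Of 30 axon genes, 6 were past the threshold as lower. Without overlap 17 were lower and 7 higher, against 21.5% and 41.0% of all genes. Snap25, a protein of synaptic vesicle fusion, was 4.92 and 4.02 in Neo2/Neo2 embryos, against 6.87 and 7.0 in Neo2/Neo embryos, and the sodium channel Scn3a differed by -2.03 (SE 0.38). Of 28 synaptic genes, 7 were past the threshold as lower, and without overlap 21 were lower and 1 higher, against the same shares. Other probe sets of Dcc differed by -2.27 and -0.16, and the second ones of Snap25 and Scn3a by -0.32 and 0.01. In the other embryos 8 axon genes and 8 synaptic genes rose with the index, and 0 of either list fell. The shares of all genes were 2.32% rising and 1.55% falling.

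One noncoding transcript had the largest difference of all genes. C130071C03Rik was 5.32 and 5.13 in Neo2/Neo2 embryos, against 8.82 and 8.87 in Neo2/Neo embryos, a difference of -3.62 (SE 0.71). Its slope in the 12 other embryos was 2.04 (SE 0.15, limma adjusted p = 1e-05). Its 3 other probe sets differed by -2.86 to 0.19, so they disagreed in size and in sign. In RefSeq for GRCm38.p6 the gene spans chr13:83721381-83741308 on the plus strand and contains Mir9-2 on the same strand. The mature microRNAs were not measured by these arrays, and they are shown because the transcript that contains them led the contrast. Capitals mark the seed, bases 2 to 8.

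mmu-miR-9-5p: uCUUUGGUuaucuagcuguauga

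mmu-miR-9-3p: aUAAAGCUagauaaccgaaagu

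The miR-9-5p stretch lies at chr13:83738821-83738843 and miR-9-3p at chr13:83738858-83738879. The same miR-9-5p sequence is encoded by Mir9-3 at chr7:79505279-79505301, inside Mir9-3hg. MiR-9 is a brain-enriched microRNA of neural progenitors and neurons. Mir9-3hg, named here after its values were seen, was 5.54 and 5.41 in Neo2/Neo2 embryos, against 6.30 and 6.47 in Neo2/Neo embryos. Its slope of 0.32 (SE 0.10) did not pass (limma adjusted p = 0.12).

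Further host transcripts were looked at in the same way, after their values were seen. Mir124a-1hg, whose microRNA miR-124 is a marker of differentiating neurons, was 5.28 and 5.36 in Neo2/Neo2 embryos, against 6.68 and 6.56 in Neo2/Neo embryos, with a slope of 0.92 (SE 0.14, limma adjusted p = 0.0036). Mir124-2hg differed by -1.23 (SE 0.35) and had a slope of 0.96 (SE 0.12, adjusted p = 0.00064). Mir99ahg was 6.74 and 6.72 in Neo2/Neo2 embryos, against 8.70 and 8.59 in Neo2/Neo embryos, with a slope of 1.47 (SE 0.30, adjusted p = 0.018). Mir99ahg is annotated at chr16:77329328-77558428, and miR-99a, let-7c and miR-125b of its cluster lie past its annotated end, miR-99a by 40512 bases, let-7c by 41244 and miR-125b by 87851. They are shown because let-7 and miR-125 are known repressors of Lin28a, whose values follow. None of the sequences shares its seed with another.

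mmu-miR-99a-5p: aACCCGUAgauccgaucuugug

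mmu-let-7c-5p: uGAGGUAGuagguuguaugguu

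mmu-miR-125b-5p: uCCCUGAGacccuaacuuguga

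Lin28a and genes linked to developmental timing were higher in Neo2/Neo2 embryos. Lin28a was 11.72 and 11.73 in Neo2/Neo2 embryos, against 9.29 and 9.5 in Neo2/Neo embryos, a 5.03-fold difference. Its slope in the other embryos was -1.27 (SE 0.20, limma adjusted p = 0.0033), and it was lower in the embryo with the higher index in 4 of the 5 genotypes of which both embryos are among the 12. Nr6a1, an orphan nuclear receptor that controls trunk elongation, was 9.13 and 9.52 in Neo2/Neo2 embryos, against 7.21 and 7.02 in Neo2/Neo embryos. Its slope was -1.08 (SE 0.11, adjusted p = 0.00014), and all 5 such pairs ran the same way. Its 4 other probe sets differed by 0.05 to 2.41. Trim71, a let-7 target and the mouse homologue of the worm timing gene lin-41, was 9.47 and 9.63 in Neo2/Neo2 embryos, against 8.18 and 8.16 in Neo2/Neo embryos, with a slope of -0.61 (SE 0.11, adjusted p = 0.011). Without -/- replicate 2 the slopes of Lin28a and Nr6a1 still passed and that of Trim71 did not.

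The rest of the timing list did not move as one. Of 19 genes measured, 4 were past the threshold as higher (Lin28a, Nr6a1, Trim71 and the DNA-binding factor Arid3b, whose second probe set differed by -0.19) and 0 as lower, with a median difference of 0.14. The paralogue Lin28b had 3.59 and 3.22 in Neo2/Neo2 embryos, against 3.58 and 3.70 in Neo2/Neo embryos, which overlapped. Among genes picked after their values were seen, the let-7 target Hmga2 differed by -0.04 and the let-7 targets Igf2bp1 and Igf2bp3 by -0.10 and 0.14. In the early embryo list, 5 of 29 genes were past the threshold as higher and 1 as lower. Sall4, a zinc finger factor of stem cells and of the tailbud, was 10.44 and 10.66 in Neo2/Neo2 embryos, against 9.41 and 9.30 in Neo2/Neo embryos, and fell with the index (slope -0.59, SE 0.10, limma adjusted p = 0.0051). Apela, a peptide ligand of the apelin receptor, was 7.41 and 7.62 in Neo2/Neo2 embryos, against 6.45 and 6.12 in Neo2/Neo embryos, with a slope of -0.73 (SE 0.16, adjusted p = 0.026), and its second probe set differed by 0.23. Prtg, an immunoglobulin superfamily protein that holds back neuronal differentiation, differed by 2.16 (SE 0.45) and fell with the index (slope -1.0, SE 0.13, adjusted p = 0.00071).

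**Figure D3:**
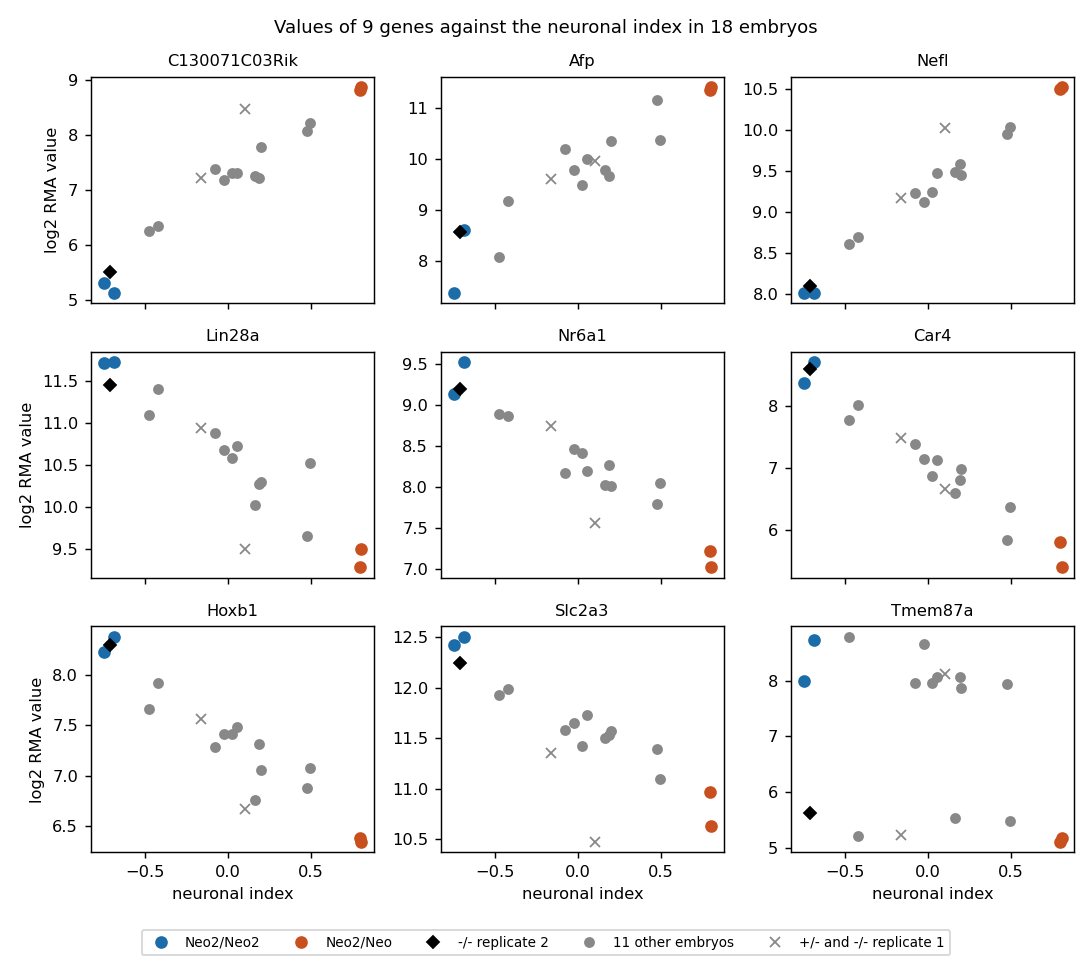
Log2 RMA values (vertical axes) of 9 genes against the neuronal index (horizontal axis) in the 18 embryos. C130071C03Rik, Afp and Nefl are low and Lin28a, Nr6a1, Car4, Hoxb1 and Slc2a3 high in the Neo2/Neo2 embryos and in -/- replicate 2. Tmem87a takes low or high values up to an index of 0.48 and only low values above it.

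Promoters of genes that moved together were searched for the E-boxes CAGCTG and CAGATG, the letters bound by proneural bHLH dimers. CAGCTG reads the same on both strands, and CAGATG was searched with its reverse complement, and these motifs cannot overlap one another. In RefSeq for GRCm38.p6, 12.8% of 18109 promoters of measured genes held CAGCTG in the 250 bases before the start. The share was 15.3% of 308 promoters of genes past the threshold as lower in Neo2/Neo2, and 11.6% of 249 of those higher. CAGATG was in 14.6% of the promoters of lower genes and 7.23% of those of higher genes, against 11.6% of all. Promoters of the same length from Nhlh2 and C130071C03Rik, the bHLH gene and the gene furthest below in Neo2/Neo2, and from Lin28a are shown with the motifs in capitals.

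Nhlh2: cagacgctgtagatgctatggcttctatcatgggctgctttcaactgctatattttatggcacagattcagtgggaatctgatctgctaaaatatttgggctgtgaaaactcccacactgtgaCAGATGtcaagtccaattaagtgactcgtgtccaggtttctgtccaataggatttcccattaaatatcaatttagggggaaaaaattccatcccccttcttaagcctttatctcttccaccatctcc

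C130071C03Rik: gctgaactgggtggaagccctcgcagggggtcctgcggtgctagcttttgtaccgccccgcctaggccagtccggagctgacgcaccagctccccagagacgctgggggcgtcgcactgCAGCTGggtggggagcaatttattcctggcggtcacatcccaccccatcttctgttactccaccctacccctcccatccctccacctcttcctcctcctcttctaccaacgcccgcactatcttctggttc

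Lin28a: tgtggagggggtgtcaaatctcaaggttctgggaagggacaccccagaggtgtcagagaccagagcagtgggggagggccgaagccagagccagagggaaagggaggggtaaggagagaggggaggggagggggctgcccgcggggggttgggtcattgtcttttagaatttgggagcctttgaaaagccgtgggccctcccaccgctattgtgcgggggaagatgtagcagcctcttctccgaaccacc

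The Nhlh2 window is chr3:102009895-102010144 on the plus strand, that of C130071C03Rik chr13:83721131-83721380 on the plus strand and that of Lin28a chr4:134018817-134019066 on the minus strand. The first 2 hold 1 motif each, and these letters are not in the Lin28a window. A match is a run of letters and was not tested as a binding site.

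Genes of neural progenitors and of brain regions split by gene. Id4, an inhibitor of bHLH factors, was 8.96 and 8.75 in Neo2/Neo2 embryos, against 10.89 and 10.80 in Neo2/Neo embryos, with a slope of 1.36 (SE 0.09, limma adjusted p = 4.9e-06). Fabp7, a fatty acid binding protein of radial glia, was 9.63 and 9.49 in Neo2/Neo2 embryos, against 10.995 and 10.998 in Neo2/Neo embryos, with a slope of 0.92 (SE 0.11, adjusted p = 0.00049). Nfib, a nuclear factor of later progenitors, differed by -2.12 (SE 0.26) and its slope of 0.80 (SE 0.20) passed narrowly (adjusted p = 0.0495). Of 35 progenitor genes, 5 were past the threshold as lower and 0 as higher, against 1.76% and 1.47% of all genes. Without overlap 15 were lower and 8 higher, against 21.5% and 41.0%, with a median difference of -0.11. In the other embryos 9 rose with the index and 0 fell, against 2.32% and 1.55% of all genes. Id4 and Nfib are not on this list. The LIM factor Lhx1, found in spinal interneurons and in the mesonephros, was 4.86 and 4.98 in Neo2/Neo2 embryos, against 7.53 and 7.22 in Neo2/Neo embryos, but its slope of 0.88 (SE 0.28) did not pass (adjusted p = 0.11). Its second probe set differed by -1.18, and the 6 others of Nfib by -2.0 to -0.33. Shox2, a homeobox factor of sensory and spinal neurons and of the sinus node, differed by -2.12 (SE 0.40) and rose with the index (slope 1.11, SE 0.09, adjusted p = 2.7e-05). Lhx1 and Shox2 were the lowest of their neuron lists, whose other members split. Of 20 spinal interneuron genes, 9 were lower without overlap and 6 higher, with a median difference of -0.17. Among 14 sensory ganglion genes 6 were lower and 2 higher, with a median of -0.10. For 18 motor neuron genes these were 9, 4 and -0.30. The shares of all genes were 21.5% lower and 41.0% higher.

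Midbrain and hindbrain genes were on the other side, and forebrain and eye genes went both ways. Of 20 midbrain and hindbrain genes, 15 were higher in Neo2/Neo2 without overlap and 2 lower, against 41.0% and 21.5% of all genes. The median difference was 0.27. The 3 past the threshold as higher were En2, Hoxb1 and Fgf17. Fgf17 is also on the tailbud list, and Hoxb1 is also active in the tail. In the other embryos 1 of the 20, Hoxb1, fell with the index and 0 rose. En2, a homeobox gene of the border between midbrain and hindbrain, was 8.05 and 7.79 in Neo2/Neo2 embryos, against 7.46 and 7.22 in Neo2/Neo embryos. Its slope was -0.17 (SE 0.16, limma adjusted p = 0.66). Six6, a homeobox gene of the optic vesicle and hypothalamus, was 6.84 and 6.90 in Neo2/Neo2 embryos, against 5.26 and 4.96 in Neo2/Neo embryos, and fell with the index (slope -1.0, SE 0.17, adjusted p = 0.0053). Of 28 forebrain and eye genes, Six6 was the 1 past the threshold as higher and 4 were lower: Mab21l1 at -1.59, Dct at -1.12, Mab21l2 at -0.74 and Lhx2 at -0.70, with a median over the list of 0.02. Aldh1a3, a retinoic acid synthesising enzyme of the eye and nasal region, differed by 2.19 (SE 0.40), with a slope of -1.39 (SE 0.18, adjusted p = 0.00093). Neural crest genes, 29 in number, had a median difference of -0.04 with 1 past the threshold as higher and 3 as lower.

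Genes of the tailbud were higher in Neo2/Neo2 embryos. Of 26 measured, 22 were higher without overlap and 1 lower, against 41.0% and 21.5% of all genes. Past the threshold were 6 as higher and 0 as lower, and the median difference was 0.49. Cdx4, a caudal homeobox factor, was 5.62 and 6.07 in Neo2/Neo2 embryos, against 3.50 and 3.25 in Neo2/Neo embryos. Nkx1-2, which marks progenitors common to spinal cord and mesoderm, was 6.69 and 6.96 in Neo2/Neo2 embryos, against 4.48 and 4.73 in Neo2/Neo embryos, and its other probe sets differed by 0.55 and 0.56. Cdx2 was 7.27 and 7.48 in Neo2/Neo2 embryos, against 5.67 and 5.81 in Neo2/Neo embryos. The Wnt target Sp5 differed by 1.05 (SE 0.24), Tbx6, a T-box factor of presomitic mesoderm, by 1.16 (SE 0.38) and Wnt3a by 0.73 (SE 0.20).

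In the 12 other embryos 8 of these 26 genes fell with the index and 1 rose, against 1.55% and 2.32% of all genes. The slope was -1.76 for Nkx1-2 (SE 0.26, limma adjusted p = 0.0026), -1.42 for Cdx4 (SE 0.27, adjusted p = 0.013) and -1.08 for Tbx6 (SE 0.13, adjusted p = 0.0006). Those of Nkx1-2 and Cdx4 did not pass without -/- replicate 2. The slopes of Cdx2 (-0.61, SE 0.19) and Wnt3a (-0.43, SE 0.14) did not pass, at adjusted p of 0.11 and 0.12. Somite clock and presomitic genes differed less, with a median difference of 0.16, 1 of 28 past the threshold as higher and 0 as lower.

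Hox genes did not move as a block. The Hox paralogues are switched on in order from the front to the back of the body as the axis grows. Hoxb1, which is active in the hindbrain and again in the tail, was 8.22 and 8.38 in Neo2/Neo2 embryos, against 6.39 and 6.35 in Neo2/Neo embryos. It fell with the index in the other embryos (slope -1.05, SE 0.15, limma adjusted p = 0.0022). Hoxd1 was 6.92 and 6.82 in Neo2/Neo2 embryos, against 5.44 and 5.45 in Neo2/Neo embryos, with a slope of -0.94 (SE 0.22, adjusted p = 0.036). Neither slope passed without -/- replicate 2. From paralogue group 3 to 8 most genes were slightly lower in Neo2/Neo2: Hoxa5 differed by -0.66 (SE 0.16), Hoxb3 by -0.66 (SE 0.13) and Hoxd3 by -0.74 (SE 0.21). Second probe sets of Hoxa5 and Hoxb3 differed by -0.05 and -0.04. None of the 14 posterior genes measured, of groups 9 to 13, was past limma's threshold in either direction, and 4 had an unadjusted p under 0.05.

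Hoxc10 was 8.24 and 8.42 in Neo2/Neo2 embryos, against 7.54 and 7.63 in Neo2/Neo embryos, and its slope of -0.49 (SE 0.13) lay at a limma adjusted p of 0.067. Hoxa10 was 6.36 and 6.28 in Neo2/Neo2 embryos, against 6.54 and 6.93 in Neo2/Neo embryos, and its second probe set differed by 0.14. Hoxc9 differed by 0.26, Hoxd9 by 0.39, Hoxa9 by -0.35, Hoxd12 by -0.36, Hoxa11 by -0.19, Hoxd10 by -0.13, Hoxd11 by 0.13, Hoxd13 by 0.16 and Hoxa13 by 0.07. The signs of Hoxa11, Hoxa13, Hoxd10, Hoxd11 and Hoxd13 turned when 1 of the 4 arrays was left out, so no direction is given for them.

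**Figure D4:**
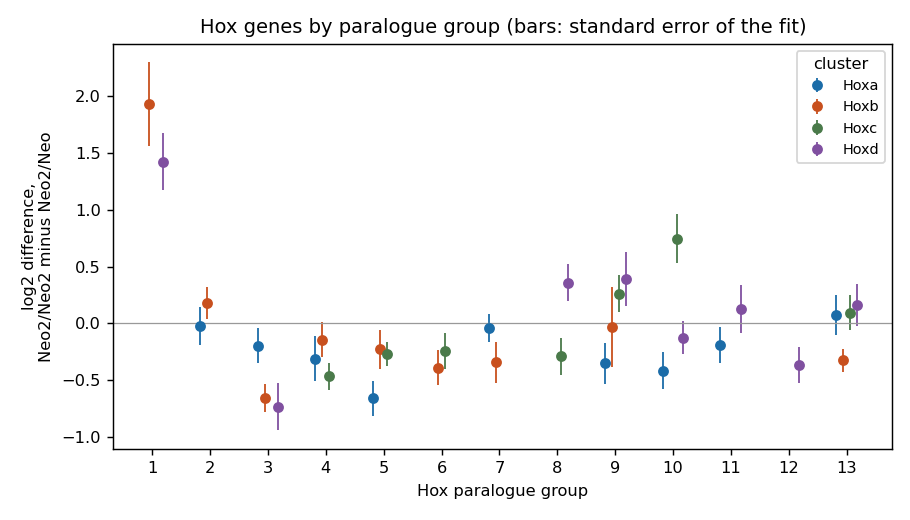
Log2 difference, Neo2/Neo2 minus Neo2/Neo (vertical axis, bars are SE of the fit), of each Hox gene measured, by paralogue group (horizontal axis) and cluster (colour). Hoxb1 at 1.93 and Hoxd1 at 1.42 lie above the other Hox genes, which range from -0.74 to 0.75.

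Heart genes were higher in Neo2/Neo2 embryos, with smaller differences. Of 34 sarcomere and chamber genes, 27 were higher without overlap and 3 lower, against 41.0% and 21.5% of all genes, and 4 were past the threshold as higher and 0 as lower. The median difference of 0.52 was the highest of the 40 lists other than the sex markers. Myl7, the atrial myosin light chain, was 11.88 and 11.93 in Neo2/Neo2 embryos, against 10.80 and 10.67 in Neo2/Neo embryos. Smyd1, a muscle methyltransferase, was 6.62 and 7.61 in Neo2/Neo2 embryos, against 5.88 and 5.52 in Neo2/Neo embryos, and its 5 other probe sets differed by -0.17 to 1.26. Nkx2-5, the cardiac homeobox factor, was 7.20 and 7.04 in Neo2/Neo2 embryos, against 6.37 and 6.01 in Neo2/Neo embryos.

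In the other embryos 4 heart genes fell with the index and 0 rose, against 1.55% and 2.32% of all genes. The slope was -0.59 for Myl7 (SE 0.11, limma adjusted p = 0.0087) and -0.57 for Nkx2-5 (SE 0.12, adjusted p = 0.025). Smyd1, at -0.53 (SE 0.17, adjusted p = 0.13), did not pass, and neither did Myl7 and Nkx2-5 without -/- replicate 2 or with all 14 arrays. Some chamber genes, picked after their values were seen, were below 0: the natriuretic peptide Nppa differed by -0.35, the calcium pump regulator Pln by -0.62 and the connexin Gja5 by -0.20. Genes of the second heart field, in whose cells Tbx1 acts, had a median difference of 0.24, with 2 of 24 past the threshold as higher. These 2 were Hoxb1, described above, and Tbx1 itself. Without overlap of arrays, 13 of the 24 were higher and 4 lower, against 41.0% and 21.5% of all genes. Isl1, which is also on the motor neuron list, was the lowest of the 24, at -0.68 (SE 0.18), without overlap. Isl1 rose with the index (slope 0.44, SE 0.09, limma adjusted p = 0.017), but did not pass without -/- replicate 2. Bmp2, which acts in heart and limb, was 7.13 and 7.03 in Neo2/Neo2 embryos, against 5.94 and 6.13 in Neo2/Neo embryos.

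Simple epithelial genes were also higher. Krt8, a keratin of simple epithelia, was 10.82 and 10.92 in Neo2/Neo2 embryos, against 9.58 and 9.05 in Neo2/Neo embryos. Its partner Krt18 was 10.24 and 10.27 in Neo2/Neo2 embryos, against 9.17 and 8.77 in Neo2/Neo embryos. Krt19 differed by 1.19 (SE 0.23), Krt7 by 1.0 (SE 0.19), the tight junction protein Cldn6 by 1.01 (SE 0.23) and the splicing factor Esrp1 by 0.83 (SE 0.12). Of 27 epithelial genes, 8 were past the threshold as higher and 0 as lower, against 1.47% and 1.76% of all genes. Without overlap 16 were higher and 1 lower, against 41.0% and 21.5%. In the other embryos 5 fell with the index and 0 rose, against 1.55% and 2.32% of all genes. Keratins of stratified skin, also picked after their values were seen, were nearer to 0: Krt5 differed by -0.22, Krt14 by 0.18 and their regulator Trp63 by -0.12.

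The slope on the index was -0.65 for Krt8 (SE 0.13, limma adjusted p = 0.015), -0.64 for Krt18 (SE 0.10, adjusted p = 0.0046) and -0.67 for Krt19 (SE 0.11, adjusted p = 0.0059), and none of the 3 passed without -/- replicate 2. Ifitm1, an interferon-induced membrane protein of the early embryo, was 9.70 and 9.79 in Neo2/Neo2 embryos, against 7.95 and 7.53 in Neo2/Neo embryos, with a slope of -1.02 (SE 0.12, adjusted p = 0.0005). Phlda2, an imprinted gene that limits placental growth, was 7.78 and 7.84 in Neo2/Neo2 embryos, against 5.8 and 5.49 in Neo2/Neo embryos, with a slope of -1.36 (SE 0.17, adjusted p = 0.00079). Markers of placenta and decidua were given beside these because trophoblast also makes simple keratins. Of 18 measured, 1 was past the threshold as higher, Cdx2, which is also a tailbud gene, and the median difference was 0.06. Without overlap of arrays, 7 of the 18 were higher and 0 lower, against 41.0% and 21.5% of all genes, so the higher count lay near the share of all genes. Plac1, a placental membrane protein, was 7.10 and 7.08 in Neo2/Neo2 embryos, against 6.49 and 6.24 in Neo2/Neo embryos, with a slope of -0.60 (SE 0.17, adjusted p = 0.076). Hand1, which is also a heart gene, differed by 0.95 (SE 0.24), with a slope of -0.34 (SE 0.10, adjusted p = 0.086). The trophoblast marker Tpbpa, picked after its values were seen, differed by 0.05 and the placental lactogen relative Prl8a2, at 3.91 and 3.49 in Neo2/Neo2 embryos, against 3.18 and 3.20 in Neo2/Neo embryos, was near the floor of the arrays. The part of trophoblast in the keratin values was not tested.

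Most genes of the hypoxia and glycolysis list, which includes glucose transporters, were higher in Neo2/Neo2 embryos. Slc2a3, a high-affinity glucose transporter, was 12.42 and 12.50 in Neo2/Neo2 embryos, against 10.97 and 10.63 in Neo2/Neo embryos. Slc2a1, the widespread glucose transporter, was 12.06 and 12.10 in Neo2/Neo2 embryos, against 11.26 in both Neo2/Neo embryos. The lactate exporter Slc16a3, which is not on the list, was 8.67 and 9.21 in Neo2/Neo2 embryos, against 7.36 in both Neo2/Neo embryos. Of 28 genes of the list, 23 were higher without overlap and 2 lower, against 41.0% and 21.5% of all genes. The median difference was 0.45, and the 2 past the threshold as higher were Slc2a3 and Bnip3. Bnip3 differed by 0.73 (SE 0.12), and its slope of -0.15 (SE 0.14) did not pass (limma adjusted p = 0.67). In the other embryos 2 of the 28 fell with the index and 0 rose, against 1.55% and 2.32% of all genes. The slope was -0.77 for Slc2a3 (SE 0.09, limma adjusted p = 0.0005) and -0.35 for Slc2a1 (SE 0.09, adjusted p = 0.045). Slc16a3 did not pass, with a slope of -0.53 (SE 0.19, adjusted p = 0.15).

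Car4, a membrane carbonic anhydrase, was among the genes furthest above in Neo2/Neo2. It was 8.37 and 8.70 in Neo2/Neo2 embryos, against 5.82 and 5.4 in Neo2/Neo embryos, with a slope of -1.94 (SE 0.15, limma adjusted p = 1.6e-05). The uncharacterised transcript 2610528A11Rik was 7.77 and 7.86 in Neo2/Neo2 embryos, against 4.40 and 4.63 in Neo2/Neo embryos, with a slope of -2.10 (SE 0.23, adjusted p = 0.00024).

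Genes of the yolk sac and liver endoderm held some of the widest differences. Afp, the fetal serum protein alpha-fetoprotein, was 7.37 and 8.60 in Neo2/Neo2 embryos, against 11.34 and 11.40 in Neo2/Neo embryos, a difference of -3.39 (SE 0.62). The Neo2/Neo2 embryos differed by more than 1 between themselves and still lay well below. Its slope was 1.97 (SE 0.31, limma adjusted p = 0.0034), with all 5 genotype pairs running the same way. Its 4 other probe sets differed by -3.12 to 0.15. Alb, serum albumin, was 5.96 and 5.93 in Neo2/Neo2 embryos, against 8.13 and 7.91 in Neo2/Neo embryos, with a slope of 1.32 (SE 0.19, adjusted p = 0.0022). Fgg, a fibrinogen chain, differed by -1.35 (SE 0.32), with a slope of 0.94 (SE 0.17, adjusted p = 0.011). The list held genes of both signs, with 13 of 31 lower and 10 higher without overlap, against 21.5% and 41.0% of all genes. Its median difference was -0.04, against 0.06 for all genes.

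On the higher side of that list, Spink1, a protease inhibitor, differed by 1.26 (SE 0.20) and fell with the index (slope -0.59, SE 0.12, limma adjusted p = 0.018). Lrp2, an endocytic receptor of yolk sac and neural epithelium, was 7.35 and 7.22 in Neo2/Neo2 embryos, against 6.08 and 6.16 in Neo2/Neo embryos, with a slope of -0.49 (SE 0.10, adjusted p = 0.015), and its other probe sets differed by 0.15 and 1.34.

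Most erythroid genes were lower in Neo2/Neo2. Of 39 erythroid membrane, haem and regulator genes, 29 were lower without overlap and 5 higher, against 21.5% and 41.0% of all genes, with a median difference of -0.43. Of these 39, only Add2, a membrane skeleton protein, was past the threshold. The anion exchanger Slc4a1 was 9.72 and 9.21 in Neo2/Neo2 embryos, against 10.76 and 10.81 in Neo2/Neo embryos. Hemgn, a haematopoietic nuclear protein, is not on the list and was past the threshold as lower. It was 8.09 and 7.43 in Neo2/Neo2 embryos, against 9.81 and 9.78 in Neo2/Neo embryos. Alas2, the first enzyme of erythroid haem synthesis, was 9.10 and 8.48 in Neo2/Neo2 embryos, against 9.96 and 9.73 in Neo2/Neo embryos. Replicate 2 of Neo2/Neo2 was the lowest of the 4 for each of these genes.

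In the other embryos 2 of the 39 genes rose with the index and 0 fell, against 2.32% and 1.55% of all genes. Their median slope was 0.34. The slope of Add2 was 0.76 (SE 0.13, limma adjusted p = 0.0065), and it did not pass without -/- replicate 2. The slope of Hemgn was 0.94 (SE 0.30, adjusted p = 0.11) and that of Slc4a1 0.89 (SE 0.29, adjusted p = 0.13), which did not pass. The embryonic globin Hbb-y was 14.24 and 14.10 in Neo2/Neo2 embryos, against 14.37 and 14.43 in Neo2/Neo embryos. Hbb-bh1 was 14.17 and 13.96 in Neo2/Neo2 embryos, against 14.32 and 14.35 in Neo2/Neo embryos. Hba-x differed by -0.49 (SE 0.14), Hba-a2 by -0.45 (SE 0.15), Hbb-b2 by -0.04 (SE 0.13) and Hba-a1 by 0.13 (SE 0.11), and no direction is given for Hbb-b2, whose arrays overlapped and whose sign turned when arrays were centred on their medians or Neo2/Neo2 replicate 2 was left out. None of the 6 globins passed limma's slope test after adjustment, and 3 had an unadjusted p under 0.05. The embryonic globins lie at the top of the arrays' scale and Hba-a1 near its floor, where a change may not show, so the globins are not ranked against other erythroid genes. Globin paralogues are near-identical in part, and their probe sets may share signal.

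Macrophage genes were lower as well. C1qb, a complement subunit made by macrophages, was 4.02 and 4.41 in Neo2/Neo2 embryos, against 6.58 and 6.30 in Neo2/Neo embryos, with a slope of 0.68 (SE 0.12, limma adjusted p = 0.0084), and its other probe sets differed by -1.41 and -0.49. The mannose receptor Mrc1 was 4.44 and 4.57 in Neo2/Neo2 embryos, against 5.77 and 5.90 in Neo2/Neo embryos, with a slope of 0.82 (SE 0.15, adjusted p = 0.011). The platelet chemokine Ppbp was 4.13 and 4.41 in Neo2/Neo2 embryos, against 6.37 and 6.59 in Neo2/Neo embryos, with a slope of 1.59 (SE 0.38, adjusted p = 0.038). Of 28 macrophage and platelet genes, 20 were lower without overlap and 1 higher, against 21.5% and 41.0% of all genes. Past the threshold as lower were 3, against 1.76% of all genes, and 5 rose with the index, against 2.32%. Several of these values in Neo2/Neo2 are near the lower end of the arrays' scale, where a log2 difference understates the change. Without -/- replicate 2 the slopes of C1qb, Mrc1 and Ppbp did not pass.

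Muscle and skeletal precursor genes showed no common shift. Of the 32 myotome genes, 2 were past the threshold as higher and 3 as lower, with a median difference of 0.02. Myh3, the embryonic myosin heavy chain, was 5.24 and 5.51 in Neo2/Neo2 embryos, against 6.61 and 6.97 in Neo2/Neo embryos. Myog, the myogenic factor of differentiation, was 5.85 and 6.11 in Neo2/Neo2 embryos, against 6.97 and 7.11 in Neo2/Neo embryos, and the light chain Mylpf differed by -1.25 (SE 0.39). On the higher side, the giant sarcomere protein Ttn differed by 1.02 (SE 0.40) and the light chains Myl1 by 0.76 (SE 0.21) and Myl4 by 0.75 (SE 0.17), without overlap of arrays. Ttn and Myl4 are also heart genes. The 5 other probe sets of Ttn differed by 0.13 to 1.32 and the second one of Myl4 by 0.12. The slope was 0.59 for Mylpf (SE 0.13, limma adjusted p = 0.026) and 0.59 for Myog (SE 0.18, adjusted p = 0.094). Igf1, a growth factor named here after its values were seen, was 7.44 and 7.65 in Neo2/Neo2 embryos, against 9.05 and 9.29 in Neo2/Neo embryos, with a slope of 0.78 (SE 0.11, adjusted p = 0.0016).

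Several lists had medians near that of all genes. The 36 cell cycle genes had a median difference of 0.06, equal to that of all genes, and quartiles of -0.06 and 0.17. Cyclin E1, Ccne1, was the 1 past the threshold, at 0.39 (SE 0.09). Mki67 was 11.74 and 11.73 in Neo2/Neo2 embryos, against 12.03 and 12.01 in Neo2/Neo embryos. None of the 35 endothelial genes was past limma's threshold, with 6 at an unadjusted p under 0.05 and a median difference of 0.03. The medians were 0.17 for hedgehog, FGF and BMP genes, 0.01 for p53 and stress genes and 0.07 for limb bud genes, with members that went both ways. Of 37 limb bud genes 3 were past the threshold as lower, among them the mesenchymal factor Prrx1 at -0.79 (SE 0.18). Prrx1 rose with the index (slope 0.51, SE 0.07, limma adjusted p = 0.001), and its 5 other probe sets differed by -1.03 to 0.03. The p53 list ranged from -1.33 to 0.64, with 1 past the threshold in each direction, and the signalling list from -0.59 to 1.05, with Bmp2 at the top and Fgfr3 past the threshold as lower. Of 22 genes near Tbx1 on chromosome 16, 3 were past the threshold as higher, which were Tbx1, Gnb1l at 0.62 (SE 0.13) and Hira at 0.45 (SE 0.09), and neither neighbour passed the slope test. Without overlap of arrays, 13 of the 22 were higher and 0 lower, against 41.0% and 21.5% of all genes. Prodh, a further neighbour, differed by 0.78 (SE 0.21) and fell with the index (slope -0.52, SE 0.11, limma adjusted p = 0.026). The 3 other probe sets of Hira differed by -0.18 to 0.06.

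Across all genes outside the index list, the contrast and the independent slopes can be set side by side. Of 268 genes past the threshold as higher in Neo2/Neo2, 84 (31.3%) fell with the index in the 12 other embryos, against 1.55% of all genes. These are 29.9% of the 281 falling genes. Of 305 lower genes, 164 (53.8%) rose with the index, against 2.32% of all genes. These are 39.0% of the 421 rising genes. A further count by sign gave 260 of 268 higher genes with a negative slope and 300 of 305 lower genes with a positive one. None was past the threshold in the opposite direction. The share of all genes with each sign was not counted, and their median slope was -0.03. The 2 sets of embryos are separate, but the spread between the other embryos enters the threshold of the contrast, and the list of index genes was drawn up with earlier results of these data known.

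**Figure D5:**
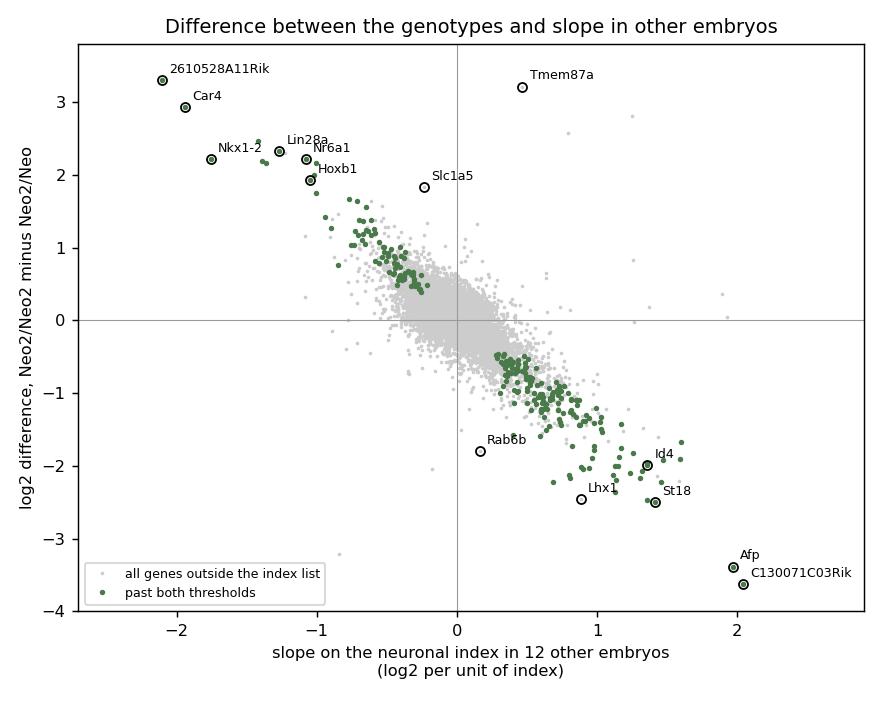
Log2 difference, Neo2/Neo2 minus Neo2/Neo (vertical axis), against the slope on the neuronal index in 12 other embryos (horizontal axis, log2 per unit of index), with 1 point per gene outside the index list and green points past both thresholds. C130071C03Rik (-3.62, slope 2.04) and 2610528A11Rik (3.30, slope -2.10) lie at the ends of the band, and Tmem87a, Slc1a5 and Rab6b lie off it.

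Some genes differed between the genotypes without following the index elsewhere. The vesicle-transport GTPase Rab6b was 5.65 and 5.69 in Neo2/Neo2 embryos, against 7.39 and 7.54 in Neo2/Neo embryos, with a slope of 0.16 (SE 0.33, limma adjusted p = 0.87). The glutamine transporter Slc1a5 was 7.23 and 8.16 in Neo2/Neo2 embryos, against 6.00 and 5.73 in Neo2/Neo embryos, with a slope of -0.24 (SE 0.66, adjusted p = 0.91). The membrane protein Tmem87a was 8.0 and 8.73 in Neo2/Neo2 embryos, against 5.11 and 5.19 in Neo2/Neo embryos, with a slope of 0.47 (SE 1.0, adjusted p = 0.88). Other probe sets differed by -1.06 to -0.37 for Rab6b and by 0.35 for Slc1a5. Rab6b was named after its values were seen.

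The -/- replicate 2 embryo gives a further comparison at the low end, since it has 2 null alleles and the index of a Neo2/Neo2 embryo. Its Lin28a value was 11.46, Nr6a1 9.19, Prtg 11.61, Car4 8.58 and Hoxb1 8.30, each closer to the Neo2/Neo2 embryos than to the Neo2/Neo embryos. On the lower side, C130071C03Rik was 5.51, Id4 8.80 and Afp 8.56 in that embryo, again near Neo2/Neo2. Tmem87a was 5.62 there, near the Neo2/Neo values. This embryo is 1 of the 12 behind the slopes. The other -/- embryo, replicate 1, was left out of the slopes and did not share these values. Its index was 0.11, with Lin28a at 9.51, Nr6a1 at 7.56, Prtg at 9.62, Car4 at 6.66 and Hoxb1 at 6.67. In that embryo C130071C03Rik was 8.47, Afp 9.95 and Tmem87a 8.12.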

How the data were processed

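Whole embryos were homogenised in TRIzol and cRNA with biotin was prepared from 6 ug RNA, per the labels' protocols. The deposited values are log2 probe set signals. The submitters' processing notes name affy and RMA; RMA corrects background, applies quantile normalization and summarises probes by median polish. Tool versions are not given in the sources read for this text. They were used as deposited, with no filter. Quantile normalization is meant to bring all arrays to 1 distribution, so differences are relative. The medians of the deposited arrays still ranged over 5.73 to 5.94. Of 45037 probe sets, 34945 had 1 gene symbol (18193 genes), 932 several and 9160 none, and the brightest single-symbol probe set stood for a gene. T and Ddx3y are not analysed here.

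Differences came from limma 3.58.1 in R 4.3.3 (lmFit and eBayes, two-sided), with 9 genotype means, 9 residual and 3.63 prior degrees of freedom, and Benjamini-Hochberg adjustment over all probe sets at 0.05. Slopes were fitted over 12 other embryos, and the 24 index genes were left out of the slope counts. Replicates are separate embryos. Replicate numbers were not used to pair the samples. Between Neo2/Neo2 and Neo2/Neo, deviations of same-numbered replicates had a correlation of -0.04. This check left out the other genotypes, so it cannot exclude a replicate effect, and a replicate block changed the counts as given below. Fits were tested on simulated data.

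Members, 41 gene lists and the naming rule were chosen with earlier results of these data known. Named were, per direction, the 20 genes with the largest difference, non-overlapping arrays, an unadjusted p under 0.01 and a mean above the median; up to 6 members per list; 10 genes per slope direction; and always Tbx1, Apela, Lin28a, Lin28b, the globins, Wnt3a, Xist, Hoxc9, Hoxc10 and the Hoxa and Hoxd genes of groups 9 to 13. The last gene inside the rule was Hemgn at -2.04 and the first outside Ncan at -2.02; on the higher side these were Smyd1 at 1.41 and Greb1l at 1.38. The text says where a gene falls outside this rule.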

Additional observations from a re-analysis of the deposited data

How the results depend on the processing

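Under the alternatives, 1659 of 1668 differences of named genes and 1092 of 1107 list medians kept their sign, and so did all 2023 values of the 102 named slopes that passed. Of those values 1597 stayed past the threshold and 426 did not, 101 of them with genotype as a factor, 55 without -/- replicate 2, 51 with all 14 arrays, 46 with the replicate block and 41 with the proneural index. The count of probe sets between the genotypes was 1195 as reported. It was 4374 with only the 4 arrays, 325 with sex as a covariate, 6791 with array weights and 4992 without +/- replicate 1 and -/- replicate 1 together. Leaving out 1 array gave counts from 0 to 2818; the lowest followed from leaving out Neo2/Neo2 replicate 2 or Neo2/Neo replicate 1, with 1 without Neo2/Neo replicate 2 and 304 without Neo2/Neo2 replicate 1, since a lone array then stands for its genotype and is assumed to vary like the others. Centring each array on its median changed the split to 571 higher and 672 lower, against 437 and 758 as reported. The count of slopes was 1335 as reported, 370 with the replicate block, 306 with all 14 other arrays, 1 with genotype as a factor, 509 with the index from the proneural list and 248 to 1566 without 1 array. The replicate block gave 1461 probe sets in the contrast. The index difference of -1.52 was -0.82 with the proneural list, -1.49 with the mean of all probe sets of a gene and -1.55 to -1.49 without 1 array. The cause of these changes was not tested. Dim genes are limited by the background of the arrays, where log2 differences are compressed.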

Other observations

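Tmem87a and H3c4 took separate low and high values over the 18 embryos. Tmem87a was between 5.11 and 5.62 in 7 embryos and between 7.86 and 8.79 in 11, and both Neo2/Neo2 embryos were among the high values and both Neo2/Neo embryos among the low ones. The low Tmem87a values were at an index from -0.71 to 0.81 and the high ones from -0.75 to 0.48. The histone gene H3c4 was between 4.26 and 5.48 in 5 embryos and between 6.84 and 7.61 in 13. It was 7.01 and 7.16 in Neo2/Neo2 embryos, against 4.44 and 5.14 in Neo2/Neo embryos. Its low values were at an index of -0.08 or above, and its slope in the 12 other embryos was -1.23 (SE 0.67, limma adjusted p = 0.38), with the lower value in the embryo of higher index in all 5 genotype pairs. The WT embryos fell on different sides for both genes.

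Slc1a5 and Pop4, a ribonuclease P subunit, are both on chromosome 7. Slc1a5 ranged from 5.73 to 6.16 (median 5.96) in the 6 embryos with a Neo allele, against 5.79 to 8.16 (median 7.68) in the 12 without one. Pop4 ranged from 8.89 to 9.10 (median 8.94) in the 6 embryos with a Neo allele, against 9.16 to 10.46 (median 10.09) in the 12 without one. Pop4 was 9.84 and 10.39 in Neo2/Neo2 embryos, against 8.94 and 8.89 in Neo2/Neo embryos. These genes were picked after their values were seen, and the litters of the embryos are not given.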
